A study of Homo sapiens with 4 samples.

Results

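The genes described here encode the E2F transcription factors and the DP proteins that pair with them. They are the 10 genes E2F1 to E2F8, TFDP1 and TFDP2, chosen by symbol, out of 25192 genes in the deposited tables. RNA was sequenced from A549, a human lung adenocarcinoma cell line, 48 h after infection with either of 2 viruses. The control empty virus (EV) group has 2 libraries and the FCN3 virus group, whose cells express the secreted lectin ficolin 3, has 2 libraries, numbered replicates 1 and 2 in both. The paper's methods describe the vector as a retrovirus that carries GFP, with GFP alone in the control. The FCN3 coding sequence carried a V5 tag. All libraries come from this 1 cell line, and a selection of infected cells before RNA extraction is not described in the sources used here. Nothing in the labels says that the replicates are separate cultures, so p-values measure the spread between these libraries, which may be technical.

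E2F proteins bind promoters of genes that cells use to enter S phase and to replicate DNA. E2F1, E2F2 and E2F3 activate such genes and are held back by the retinoblastoma protein RB1 until cyclin-dependent kinases phosphorylate it. E2F4 and E2F5 act mostly as repressors together with the related pocket proteins RBL1 and RBL2, and E2F6 represses without a pocket protein, through Polycomb partners. These E2Fs bind DNA as dimers with TFDP1 or TFDP2. E2F7 and E2F8, the atypical members, bind DNA without a DP partner and repress E2F target genes late in S phase. Several E2F genes are themselves E2F targets and are transcribed mainly in cycling cells.

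Promoter sequences are shown for the members whose window held a match to the letters searched, since an E2F gene can be a target of its own family. They include members that were lower with the FCN3 virus and members of which this was not found. RefSeq windows on GRCh38.p14 were found for 8 of the 10 genes, and none for E2F5 and E2F8. The 250 bases before the annotated start were searched on both strands for 4 forms of the E2F element, with the letters TTCCCGC (in 5.52% of all promoters), TTCGCGC (1.85%), TTGCCGC (1.87%) and TTGGCGC (2.56%), and for TTTGAA, the core of the cell cycle homology region. Capitals mark the matches. E2F1, E2F2 and TFDP1 are given first, then E2F3 and E2F7.
E2F1, chr20:33686386-33686635, minus strand: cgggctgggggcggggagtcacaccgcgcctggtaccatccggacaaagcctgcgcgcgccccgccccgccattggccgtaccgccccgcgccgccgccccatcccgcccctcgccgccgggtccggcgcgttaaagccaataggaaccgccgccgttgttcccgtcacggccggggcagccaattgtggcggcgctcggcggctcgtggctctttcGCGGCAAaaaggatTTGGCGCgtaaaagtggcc
E2F2, chr1:23531234-23531483, minus strand: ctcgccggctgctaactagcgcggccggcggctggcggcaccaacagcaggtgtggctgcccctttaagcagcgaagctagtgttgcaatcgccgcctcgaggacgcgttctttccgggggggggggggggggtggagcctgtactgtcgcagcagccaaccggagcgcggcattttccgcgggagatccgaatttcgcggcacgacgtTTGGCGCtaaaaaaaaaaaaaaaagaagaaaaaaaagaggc
TFDP1, chr13:113584503-113584752, plus strand: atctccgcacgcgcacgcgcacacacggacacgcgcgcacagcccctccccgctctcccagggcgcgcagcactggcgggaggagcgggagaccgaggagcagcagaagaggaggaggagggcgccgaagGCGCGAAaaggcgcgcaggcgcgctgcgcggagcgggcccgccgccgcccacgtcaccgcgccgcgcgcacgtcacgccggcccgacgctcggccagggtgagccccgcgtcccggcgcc
E2F3, chr6:20401629-20401878, plus strand: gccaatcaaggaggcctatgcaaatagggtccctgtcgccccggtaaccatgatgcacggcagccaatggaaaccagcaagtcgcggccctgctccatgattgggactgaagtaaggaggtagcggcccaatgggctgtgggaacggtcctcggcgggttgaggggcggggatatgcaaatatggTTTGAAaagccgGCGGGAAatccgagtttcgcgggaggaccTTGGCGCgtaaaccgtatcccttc
E2F7, chr12:77065570-77065819, minus strand: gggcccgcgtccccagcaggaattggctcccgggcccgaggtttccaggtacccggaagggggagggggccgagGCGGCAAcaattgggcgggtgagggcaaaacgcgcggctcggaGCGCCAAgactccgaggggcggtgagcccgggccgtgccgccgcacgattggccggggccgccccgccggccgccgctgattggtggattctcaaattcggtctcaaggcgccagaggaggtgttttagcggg
An E2F word was in the window of 5 of the 8 genes, against 10.9% of 35116 RefSeq promoters, and 3 of the 8 (E2F1, E2F3 and E2F7) held at least 2 matches, against 1.35% of promoters. The words are rich in G and C, which made up 58.8% (E2F3) to 78.4% (TFDP1) of the windows. The promoters compared were not matched for this. E2F1 had GCGGCAA, the reverse complement of TTGCCGC, from 33 to 27 bases before the start and TTGGCGC from 19 to 13 bases before it. E2F2 had TTGGCGC from 41 to 35 bases before the start. TFDP1 had GCGCGAA, the reverse complement of TTCGCGC, from 120 to 114 bases before the start. TTTGAA was found in E2F3 alone, against 13.3% of promoters. The words were thus in the windows of E2F3 and E2F7 as well as in those of E2F1, E2F2 and TFDP1. E2F4, E2F6 and TFDP2 had no match to the letters searched, and their windows are not shown. E2F4 is among the members called as lower in a fit described below.

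With the FCN3 virus E2F8 fell to 0.328 of its EV level, and it was the 1 member of 10 that edgeR's quasi-likelihood test called at an adjusted p below 0.01. The same test called 0.965% of all 14099 tested genes in either direction. With the replicate number as a block in the fit, 5 members were called, all of them lower: E2F1, E2F2, E2F4, E2F8 and TFDP1. That fit called 36.2% of all tested genes (17.1% of all as lower and 19.1% as higher). Without the block 0.227% of genes were called lower and 0.738% higher. DESeq2 called the same 4 members as lower, E2F1, E2F2, E2F8 and TFDP1, without and with the block. It called 7.91% of 13216 genes without the block (3.47% lower, 4.45% higher) and 15.8% of 13939 genes with it (7.91% lower, 7.93% higher). At an FDR of 0.05 edgeR without the block called E2F1, E2F2 and E2F8, against 7.19% of genes (2.77% lower, 4.43% higher). E2F3, E2F5, E2F6, E2F7 and TFDP2 were called at 0.01 in none of these 4 fits.

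The libraries held 16353554 to 35733735 expected counts, the estimated counts per gene that RSEM gives. In both groups the deeper library was replicate 1. FCN3 had 1 and 0 counts in the EV libraries and 722388 and 448352 counts in the libraries with the FCN3 virus. All 8 epithelial and A549 markers were above 3 counts in every library, with a summed level of 13223 to 17146 TPM (transcripts per 1000000, a scale per length). Their sum was lower in the libraries with the FCN3 virus (13223 and 14886 TPM) than in EV (15634 and 17146 TPM), and this lay in ALDH1A1: the other 7 summed to 9813 and 10730 TPM in EV against 9810 and 10962 TPM. Among the 6 immune markers the defining PTPRC and CD3E were at 0 or 1 count, while the summed level was 35.9 and 36.8 TPM in EV against 62.8 and 50.2 TPM, of which CD68, a lysosomal protein gene, made up 33.9, 35.7, 61.9 and 49.8 TPM. The 4 endothelial markers summed to at most 0.08 TPM, and the 7 fibroblast markers to 9.53 to 20.2 TPM, with DCN at 0. Most of the fibroblast sum lay in THY1 and COL1A1. THY1 was at 10.9 and 11.5 TPM in EV and 6.67 and 6.03 TPM with the FCN3 virus. COL1A1 was at 3.39 and 8.12 TPM against 2.7 and 7.87 TPM. THY1 was called as lower with the block (log2 fold change -0.70, edgeR adjusted p = 1.3e-06, or 0.054 without the block). Libraries of the same number deviated together: across 8268 genes, the difference between replicates 1 and 2 in EV correlated with that in the FCN3 virus group (Pearson's r = 0.802, taken across genes that are no independent replicates). For this reason each member has a value from both fits. The smallest two-sided p of an exact permutation test on 1 gene would be 0.333 with 2 libraries in each group.

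**Figure D1:**
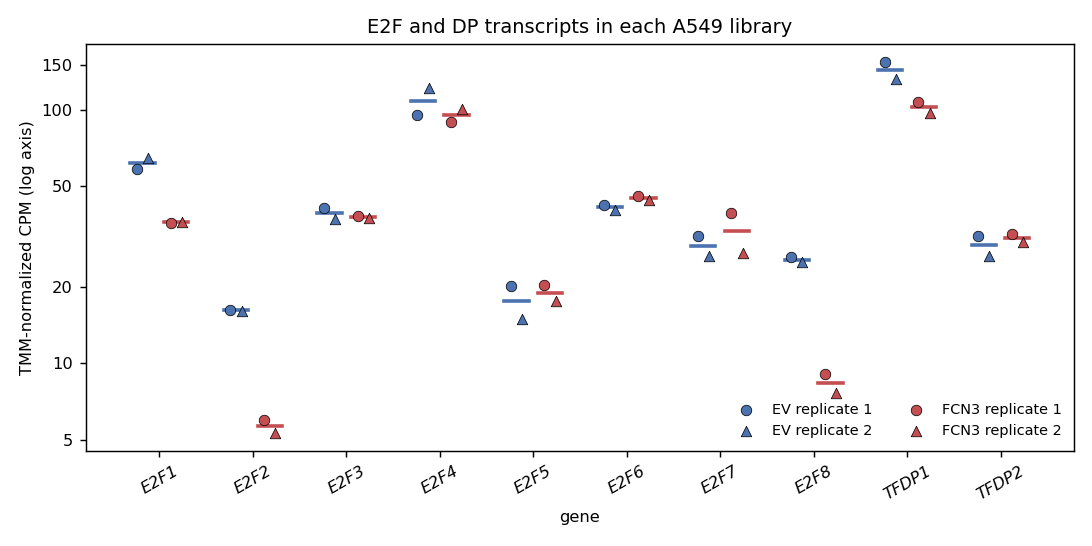
TMM-normalized counts per 1000000 (CPM, log axis) of the 10 genes in each library: circles are replicate 1, triangles replicate 2, and the short lines group means (n = 2). E2F8 and E2F2 lie far lower in both libraries with the FCN3 virus, E2F1 and TFDP1 lie below both EV libraries by less, and the groups of E2F3, E2F4, E2F5, E2F7 and TFDP2 overlap.

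E2F8 occupies chr11:19245610-19263167 (GRCh37, minus strand). It had 954 and 421 expected counts in EV and 307 and 152 with the FCN3 virus. Normalized by the TMM method, which scales each library to a common reference, these were 26.2 and 25.1 CPM in EV against 9.05 and 7.64 CPM with the FCN3 virus. Both libraries with the FCN3 virus were far below both EV libraries, and the EV libraries lay close together. The log2 fold change was -1.61 (standard error 0.14, 95% interval -1.97 to -1.25, edgeR adjusted p = 0.0074, or 1.3e-19 when blocked by replicate number). Replicate 1 alone gave -1.52 and replicate 2 alone -1.71. The call needed both libraries with the FCN3 virus: without FCN3 replicate 1 the edgeR adjusted p was 0.0128, and without FCN3 replicate 2 it was 0.0107, at log2 fold changes of -1.75 and -1.5. In bulk RNA, fewer cycling cells and less E2F8 RNA per cell cannot be told apart, and this holds for every member. The lncRNA gene CSRP3-AS1 covers E2F8 on the opposite strand, but their exons share 7 bases.

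E2F7, the other atypical E2F, was not called in any of these fits. The gene occupies chr12:77415028-77459349 (GRCh37, minus strand) and was at 31.7 and 26.4 CPM in EV and 39.3 and 27.2 CPM with the FCN3 virus. The groups overlap, and replicate 1 was the higher library in both. Its log2 fold change was 0.20 (standard error 0.20, 95% interval -0.32 to 0.71, edgeR adjusted p = 0.607, blocked 0.040). The sign of this difference turned without FCN3 replicate 1, at -0.10. Per length, E2F8 was above E2F7 in EV, with TPM ratios of 1.34 and 1.55, and below it with the FCN3 virus, at 0.376 and 0.452. Within the replicate numbers the log2 ratio of E2F8 to E2F7 differed by -1.84 and -1.78 between the groups. The ratios were not tested.

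**Figure D2:**
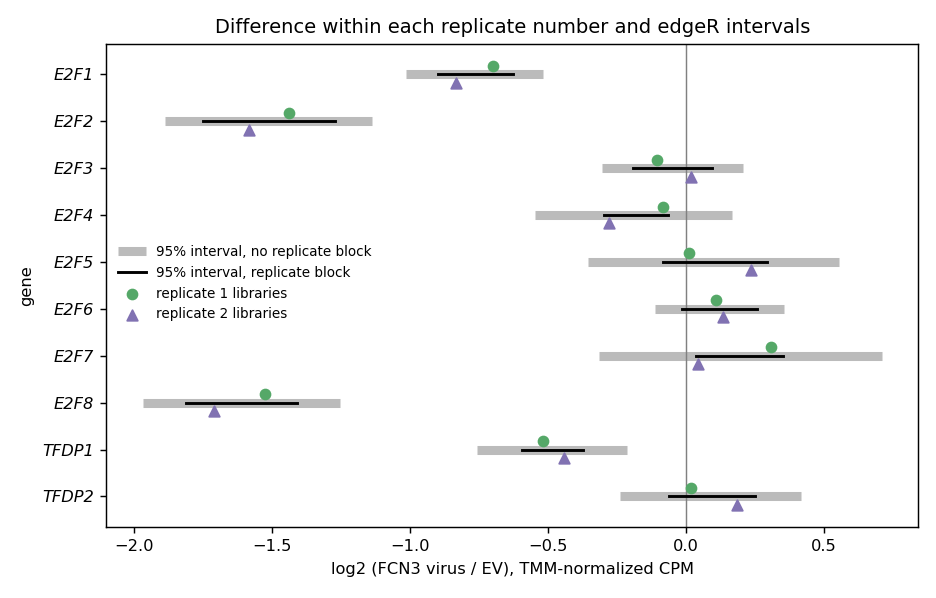
Log2 difference between FCN3 virus and EV within each replicate number (circles and triangles), with the 95% interval of the edgeR fit without (grey bars) and with the replicate block (black lines), from CPM. Both points lie below -1.4 for E2F2 and E2F8 and near 0 for E2F3, where they fall on opposite sides.

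Among the activators, E2F2 stood lower by nearly as much as E2F8. It occupies chr1:23832930-23857725 (GRCh37, minus strand) and had 593 and 270 expected counts in EV against 202 and 106. The levels were 16.3 and 16.1 CPM in EV and 5.96 and 5.33 CPM with the FCN3 virus, so that the groups are well apart. E2F2 had a log2 fold change of -1.51 with the FCN3 virus (standard error 0.15, 95% interval -1.89 to -1.14). Its adjusted p in edgeR was 0.01004, just above the threshold, and 9.0e-16 with the block. Under other settings the edgeR adjusted p lay either below it, for example 0.0095 with RLE size factors and 0.0093 without EV replicate 2, or further above it, at 0.0173 without EV replicate 1, 0.0292 without FCN3 replicate 1 and 0.0229 without FCN3 replicate 2. E2F2 and E2F8 thus stand close together on either side of the threshold.

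E2F1, the founding activator of the family, had a smaller fold change than E2F2 and was called at 0.01 in edgeR only with the block. It occupies chr20:32263283-32274191 (GRCh37, minus strand). Its level was 58.3 and 64.6 CPM in EV and 35.9 and 36.2 CPM with the FCN3 virus. Both libraries of the latter were lower than both EV libraries, and they differed little from each other. On the log2 scale the difference was -0.77 (standard error 0.10, 95% interval -1.02 to -0.52, edgeR adjusted p = 0.0171, blocked 4.4e-14). Within replicate numbers it was -0.70 and -0.83.

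E2F3, the third activator, occupies chr6:20402110-20493945 (GRCh37, plus strand) and was at 41.0 and 37.0 CPM in EV and 38.1 and 37.5 CPM with the FCN3 virus. The groups overlap. Its log2 fold change was -0.05 (95% interval -0.31 to 0.21, edgeR adjusted p = 0.813, blocked 0.605), and the interval with the block, -0.19 to 0.09, leaves out changes of the size measured for E2F1. On the TPM scale E2F2 stood at 0.141 and 0.126 of E2F1 in EV and at 0.0836 and 0.0742 with the FCN3 virus, while E2F1 went from 2.43 and 3.02 times E2F3 to 1.6 and 1.65 times. Both ratios were lower in both libraries with the FCN3 virus, and neither was tested.

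Of the repressors that bind as DP dimers, E2F4 was called in the blocked edgeR fit and E2F5 and E2F6 were not called. E2F4, often the most abundant E2F in cell lines, occupies chr16:67226058-67232821 (GRCh37, plus strand) and was at 95.2 and 122 CPM in EV and 89.8 and 100.4 CPM with the FCN3 virus. The groups overlap, although each replicate number gave a lower value with the FCN3 virus (log2 differences -0.08 and -0.28). E2F4 had a log2 fold change of -0.19 (standard error 0.14, edgeR adjusted p = 0.470). With the block it was -0.18 with an adjusted p of 0.0085, while DESeq2 with the block gave no call for E2F4. Leaving out 1 library moved it from -0.35 without EV replicate 1 to -0.0088 without EV replicate 2.

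E2F5 occupies chr8:86089389-86129387 (GRCh37, plus strand) and was at 20.1 and 15.0 CPM in EV and 20.3 and 17.6 CPM with the FCN3 virus, with overlapping groups. Its log2 fold change was 0.10 (95% interval -0.36 to 0.55, edgeR adjusted p = 0.787, blocked 0.372). It was the only member whose expected counts were not whole numbers, at 734, 251, 689 and 351. Together with those of C8orf59 (now named RBIS), a gene on the opposite strand whose exons share 991 bases with E2F5, they added up to whole numbers in all 4 libraries (1815, 708, 1718 and 920). RSEM thus divided reads between the pair, and the level of E2F5 alone is uncertain. Their summed counts gave a log2 fold change of 0.07 (standard error 0.12, edgeR adjusted p = 0.766, blocked 0.392), an analysis added after the counts were seen.

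E2F6 occupies chr2:11584501-11606303 (GRCh37, minus strand). Its level was 42.3 and 40.1 CPM in EV and 45.6 and 44 CPM with the FCN3 virus, the 1 member that was higher in both libraries with the FCN3 virus without overlap. Its log2 fold change was 0.12 (standard error 0.09, 95% interval -0.11 to 0.36, edgeR adjusted p = 0.484, blocked 0.145). In TPM its groups overlap, at 25.0 and 23.6 against 24.9 and 24.4. Of the 10 members, 5 had groups that did not overlap in CPM, 4 lower and 1 higher, beside 54.5% of all tested genes (26.5% lower and 28.0% higher). In TPM 6 did not overlap, all lower, beside 56.6% of all tested genes (36.8% lower and 19.8% higher): E2F3 and E2F4 joined E2F1, E2F2, E2F8 and TFDP1, and E2F6 dropped out. On log2(TPM + 0.1) the median log2 fold change of all tested genes was shifted by -0.10 against the TMM-normalized counts, and differences of that size turn on the scale.

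Of the DP partners, TFDP1 was called as lower with the block and TFDP2 was not called. TFDP1, a common partner of the E2Fs, occupies chr13:114239036-114295788 (GRCh37, plus strand). The EV libraries had 154 and 133 CPM and those with the FCN3 virus 107 and 97.5 CPM, without overlap. The fit gave a log2 fold change of -0.48 (standard error 0.11, 95% interval -0.76 to -0.21, edgeR adjusted p = 0.0610, blocked 1.5e-10). Within replicate numbers it was -0.52 and -0.44.

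TFDP2 occupies chr3:141663270-141868386 (GRCh37, minus strand) and was at 31.9 and 26.5 CPM in EV and 32.3 and 30.1 CPM with the FCN3 virus, with overlapping groups. Its log2 fold change was 0.09 (95% interval -0.24 to 0.42, edgeR adjusted p = 0.726, blocked 0.344), and its sign turned on the TPM scale. The TPM ratio of TFDP1 to TFDP2 was 19.1 and 19.9 in EV and 13.2 and 12.8 with the FCN3 virus. TFDP3, a further DP gene that is not among the 10, had 0 counts in every library.

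Per length, TFDP1 (99.2 to 116 TPM) and E2F4 (90.3 to 115 TPM) were the most abundant of the 10 in EV, and their ranges overlap. E2F1 followed at 42.3 to 46.4 TPM, then E2F6 (23.6 to 25.0 TPM) and E2F5 (17.6 to 23.9 TPM), which also overlap. E2F3 (15.4 to 17.4 TPM), E2F8 (13.4 to 14.0 TPM) and E2F7 (8.60 to 10.4 TPM) came next, each below the gene before it. E2F2 (5.83 to 5.94 TPM) and TFDP2 (4.98 to 6.05 TPM) were the least abundant and overlap. With the FCN3 virus E2F4 (78.4 to 89.1 TPM) stood above TFDP1 (68.4 to 74.1 TPM) and E2F1 (23.9 to 24.5 TPM) overlapped E2F6 (24.4 to 24.9 TPM). E2F8 (3.78 to 4.47 TPM) stood at rank 9 against rank 7 in EV, below E2F7 and TFDP2, and E2F2 (1.82 to 2.0 TPM) came last.

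**Figure D3:**
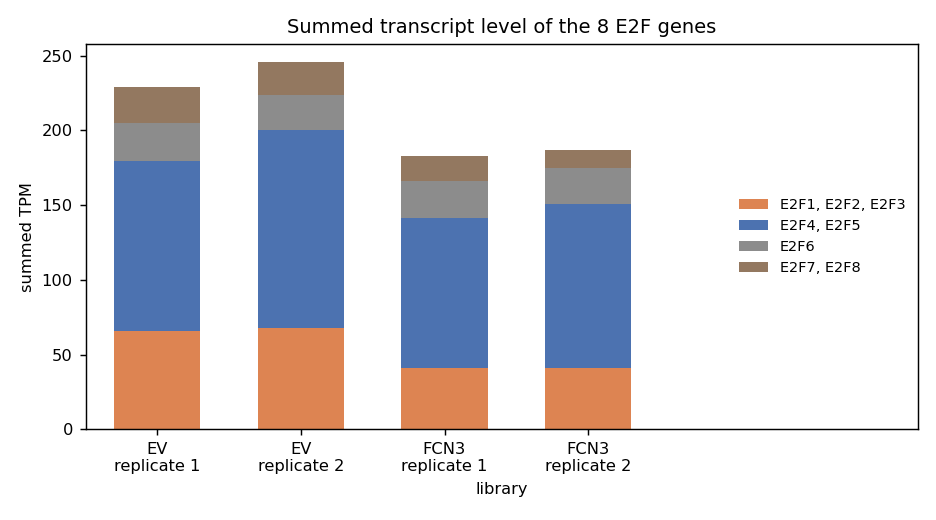
Summed TPM of the 8 E2F genes in each library, stacked from the activators E2F1 to E2F3 at the bottom through E2F4 with E2F5 and E2F6 to the atypical E2F7 with E2F8 on top. The bars reach 229 and 246 TPM in EV and 183 and 187 TPM with the FCN3 virus.

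Added up, the 8 E2F genes amounted to 229 and 246 TPM in EV and 183 and 187 TPM with the FCN3 virus. The activators made up 28.6% and 27.5% of these sums in EV and 22.4% and 22% with the FCN3 virus. E2F4 and E2F5 made up 49.8% and 53.9% in EV and 55.1% and 58.4% with the FCN3 virus, and E2F6 10.9% and 9.6% against 13.6% and 13%. The share of the activators was lower and that of the pocket-binding repressors and of E2F6 higher in both libraries with the FCN3 virus than in both EV libraries. The higher shares did not go with higher TPM. E2F4 and E2F5 summed to 114 and 132 TPM in EV and to 101 and 109 TPM with the FCN3 virus. E2F6 was at 25.0 and 23.6 TPM against 24.9 and 24.4 TPM. E2F7 and E2F8 together made up 10.7% and 8.94% in EV and 8.96% and 6.49% with the FCN3 virus, shares that overlap between the groups. The shares were not tested.

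The mean transcript length that RSEM assigns to a gene moves when its use of transcripts moves. E2F1, E2F2, E2F4 and E2F7 are each given 1 transcript in the tables, so theirs is fixed. E2F3, with 2 transcripts, was at 4495 and 4551 bases in EV and 4473 and 4488 bases with the FCN3 virus, shorter without overlap but by little. E2F8, with 3 transcripts, was at 3594 and 3590 bases against 3582 and 3631 bases, and the groups overlap. TFDP2, E2F6 and TFDP1 overlapped in length between the groups as well. E2F5 was at 1715 and 1720 against 1714 and 1670 bases, under the same doubt about shared reads as its level.

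Replicate numbers differed for some members. With the condition in the fit, edgeR called 3 of the 10 between replicates 1 and 2 at an adjusted p below 0.01, against 22.2% of all genes. E2F4 was lower in replicate 1, by -0.36 (EV) and -0.16 (FCN3 virus) on the log2 scale (adjusted p = 3.7e-04 in edgeR). E2F7 was higher in replicate 1, by 0.27 and 0.53 (adjusted p = 6.4e-05 in edgeR), and E2F5 by 0.42 and 0.20 (adjusted p = 0.0088 in edgeR). TFDP1 was just above the threshold, higher in replicate 1 by 0.21 and 0.14 (adjusted p = 0.0106 in edgeR). E2F1, E2F2 and E2F8 were not called, with edgeR adjusted p between 0.33 and 0.71. NEAT1 and MALAT1, nuclear RNAs that vary with RNA preparation, moved with the replicate number too, at a summed 118 and 114 TPM in the replicate 1 libraries against 273 and 272 TPM in the replicate 2 libraries. NEAT1 makes up most of this sum. MALAT1 also moved with the condition in the blocked fit, at 9.13 and 20.8 TPM in EV against 11 and 28.9 TPM (log2 fold change 0.47, edgeR adjusted p = 2.4e-09 with the block and 0.618 without it). Their part in these differences was not tested.

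**Figure D4:**
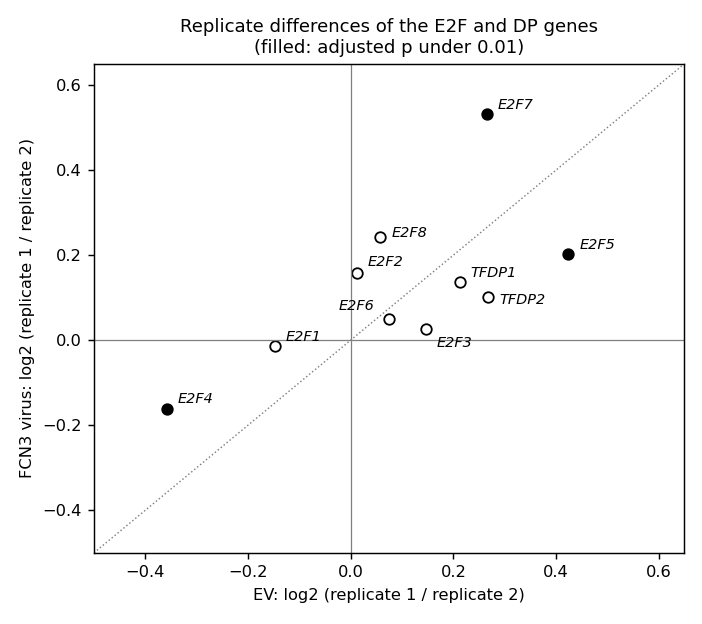
Log2 difference between replicates 1 and 2 of each gene in EV (x axis) and with the FCN3 virus (y axis). Filled points passed an adjusted p of 0.01 in edgeR for the replicate number, and the dotted line marks equal differences. E2F7 and E2F5 lie at upper right and E2F4 at lower left.

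The partners and regulators of E2F were read from lists of named genes. Over all 11 lists, 134 of 142 genes were tested and 6 were called without the block, all lower. With the block 97 were called lower and 8 higher. The median log2 fold change was -0.53, against 0.02 over all tested genes, of which 0.227% were called lower without the block. The calls with the block are 78.4% of the 134, beside 36.2% of all tested genes. The lists were chosen with earlier results of these data known, and 50 and 31 of the 134 are G1/S and G2/M target genes. The share over all lists thus depends on that choice and is no independent test. The share was 33.3% for the pocket proteins and 50% each for the MuvB, CDK inhibitor and apoptosis lists, and it was 85.7% to 100% for the G1 cyclin, ubiquitin ligase, G1/S and G2/M lists. Without the block 95 of the 134 had an unadjusted p below 0.05 (70.9%, beside 25.1% of all tested genes), and DESeq2 called 69, where it called 7.91% of all genes. Of the 3 pocket proteins edgeR called 0 without the block and DESeq2 0, with 1 at an unadjusted p below 0.05. That 1 was RBL1, called as lower with the block, at 52.4 and 40.7 CPM in EV against 33.7 and 27.5 CPM (-0.61 on the log2 scale, edgeR adjusted p = 0.0988 without the block). RB1 (log2 fold change -0.15) and RBL2 (-0.16) were called in neither fit.

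The MuvB complex sits with E2F4 and a pocket protein on promoters in resting cells and with MYBL2 (B-MYB) and FOXM1 in cycling cells. Of these 8 genes MYBL2 fell, from 181 and 183 CPM in EV to 92.5 and 93.1 CPM (log2 fold change -0.97, standard error 0.08, edgeR adjusted p = 0.0053). FOXM1 was at 194 and 201 CPM against 122 and 121 CPM (-0.70, edgeR adjusted p = 0.012, called with the block). The core subunits LIN9, LIN52, LIN54 and RBBP4 were called in neither fit, and LIN37 (0.37) was called as higher with the block. DYRK1A, the kinase that assembles the repressive complex, was also called as higher with the block (log2 fold change 0.30). Neither LIN37 nor DYRK1A was called without the block, in edgeR or in DESeq2. With it 2 of the 8 were called higher and 2 lower, beside 19.1% and 17.1% of all tested genes.

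Of the 12 genes of the Polycomb complex that holds E2F6, 0 were called without the block in edgeR and 0 in DESeq2, with 4 at an unadjusted p below 0.05. With the block CBX3 (log2 fold change -0.34), HDAC1 (-0.30) and WDR5 (-0.23) were called lower and MAX (0.35) and MGA (0.22) higher. These 41.7% of the list stand near the 36.2% of all tested genes called in that fit, so they are no result about the complex. Of 4 germline genes that E2F6 is known to silence, STAG3 alone passed the filter, at 0.239 to 0.553 CPM, and MAEL had 0 counts in every library. Of the 7 coactivators 0 were called without the block in edgeR, 0 in DESeq2 and 0 had an unadjusted p below 0.05. With the block KAT2A (-0.29), KAT2B (-0.27) and HCFC1 (-0.21) were called lower, 42.9% of the list and again near the 36.2% of all genes.

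Upstream of the pocket proteins, 0 of the 7 tested G1 cyclins and kinases were called in edgeR without the block (3 at an unadjusted p below 0.05, 2 called in DESeq2), and 6 were called lower with it. CCND3, a D-type cyclin, was at 134 and 171 CPM in EV and 73.0 and 85.7 CPM in the FCN3 virus group (-0.94 on the log2 scale, edgeR adjusted p = 0.028). CCND1 was at 481 and 447 CPM against 531 and 494 CPM (0.14, edgeR adjusted p = 0.381, blocked 0.0128). CCNE1 (-0.46) and CCNE2 (-0.44), partners of CDK2 and themselves E2F targets, were among the 6 called with the block, as was CDK2 (-0.64). Of 4 tested CDK inhibitors edgeR called 0 without the block, with 2 at an unadjusted p below 0.05 and 2 called in DESeq2. CDKN1A, which encodes p21, was at 173 and 190 CPM in EV and 318 and 307 CPM with the FCN3 virus (0.78, edgeR adjusted p = 0.012, called as higher with the block). CDKN2C, an inhibitor of CDK4 and CDK6 that is an E2F target, was at 21.7 and 18.4 CPM against 7.52 and 5.98 CPM (-1.56, edgeR adjusted p = 0.013, called with the block). CDKN2A, which A549 has lost, had 4 and 2 counts in EV and 2 and 0 counts with the FCN3 virus. The ubiquitin ligase subunits CCNF (-0.94), SKP2 (-0.82) and FZR1 (-0.43), which mark E2F proteins for destruction, gave 0 calls in edgeR without the block (3 at an unadjusted p below 0.05, 2 called in DESeq2), and all 3 were called lower with it.

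**Figure D5:**
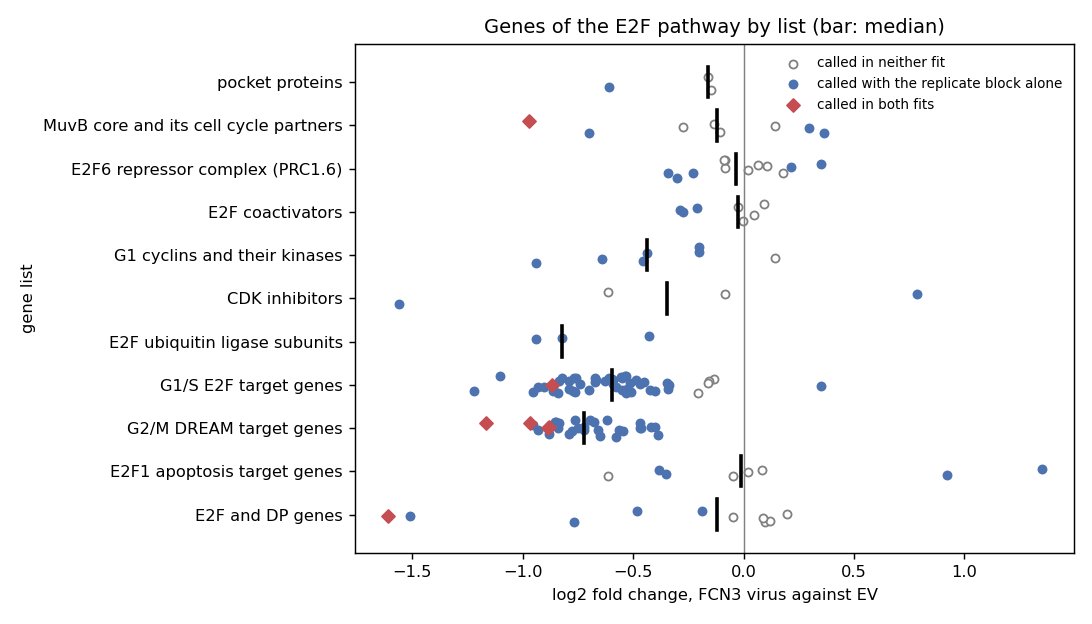
Log2 fold change (FCN3 virus against EV) of each tested gene of 10 pathway lists and of the E2F and DP genes, with the median as a black bar. Points are white where edgeR called the gene in neither fit, blue where with the replicate block alone and red diamonds where in both. The G1/S and G2/M target genes lie left of 0 with 1 exception, whereas the apoptosis targets spread to both sides.

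Of 50 G1/S target genes of E2F, 49 had a lower value with the FCN3 virus, with a median log2 fold change of -0.60. Of all 14099 tested genes, 6783 had a lower value. In edgeR without the block 1 was called, MCM5, a subunit of the replicative helicase (176 and 170 CPM in EV, 96.0 and 93.3 CPM with the FCN3 virus, -0.87, edgeR adjusted p = 0.0080). With the block 45 were called lower and 1 higher, beside 17.1% and 19.1% of all tested genes. GINS2 (-1.10) and MCM2 (-0.95), which act in the replicative helicase, and RRM2 (-0.93), a ribonucleotide reductase subunit, were among the genes called as lower with the block. The exception was CDC6, a licensing factor, at 152 and 132 CPM against 193 and 170 CPM (0.35, edgeR adjusted p = 0.13, called as higher with the block).

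All 31 G2/M genes bound by the MuvB complexes had lower values, with a median of -0.72. All 31 were called as lower with the block, beside 17.1% of all tested genes. Without it KIF20A, a mitotic kinesin (-1.17), CDCA3 (-0.97), and the mitotic kinases PLK1 (-0.89) and AURKA (-0.88) fell, with edgeR adjusted p between 0.0039 and 0.0081. Without FCN3 replicate 1 the G1/S and G2/M lists had 0 and 0 calls, without FCN3 replicate 2 they had 0 and 1, and without EV replicate 2 they had 12 and 13. DESeq2 called 32 and 27. At an FDR of 0.05 31 and 24 genes were called, all lower, against 2.77% of all tested genes.

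The genes through which E2F1 is known to promote apoptosis had values on both sides of 0. Of 8 tested, 0 were called without the block in edgeR, with 4 at an unadjusted p below 0.05 and 2 called in DESeq2. With the block 2 were called as higher and 2 as lower, 50% of the list beside 36.2% of all tested genes (19.1% higher, 17.1% lower). PMAIP1 and BBC3, which encode the BH3-only proteins NOXA and PUMA, were among those called as higher and BCL2L11 (-0.39) among those called as lower. PMAIP1 was at 18.3 and 10.0 CPM in EV and 41.5 and 32.7 CPM in the other group (1.35 on the log2 scale, edgeR adjusted p = 0.054). BBC3 was at 14.7 and 14.7 CPM against 27.8 and 28.1 CPM (0.92, edgeR adjusted p = 0.015). TP73, a p53 relative and a known target of E2F1, was at 0.878 and 1.08 CPM against 0.560 and 0.704 CPM (-0.62, edgeR adjusted p = 0.38), and APAF1 was at 40.8 and 34 CPM against 41.7 and 34.4 CPM.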

How the data were processed

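RNA-seq libraries of A549 cells (EV, n = 2; FCN3 virus, n = 2) were grouped and numbered by their labels. Reads had been trimmed with Fastx_toolkit 0.0.13, aligned to hg19 with STAR 2.6.1d and quantified with RSEM 1.3.3. The authors deposited expected counts, which are estimated and not normalized, TPM and FPKM, both scaled for length and depth, and mean transcript lengths. FPKM was not used. Which annotation release was used, and whether counting used strand, is not given in the sources used here.

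Expected counts were rounded and compared in R 4.3.3 with edgeR 4.0.16 (TMM, filterByExpr, quasi-likelihood test, Benjamini-Hochberg adjustment over 14099 of 25192 genes, threshold 0.01). All 10 members passed the filter. Same-numbered libraries were paired by the labels' replicate numbers, and a fit with that number as a block leaves 1 residual degree of freedom a gene, the rest being shared over all genes. A standard error is the size of the log2 fold change divided by the root of the F statistic. Alternatives were DESeq2 1.42.0, limma 3.58.1, other scalings, filters and thresholds, and each library left out. The smallest detectable level, 3 counts, was 0.0840 to 0.183 CPM, counting error only.

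Members and gene lists were chosen with earlier results of these data known. Genes named from the lists were those called, those of the largest change (up to 4), those against the list's median, or any in lists of 8 or fewer. Locations come from GENCODE on GRCh37. A few genes of the lists are counted in them but not reported here by name.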

Additional observations from a re-analysis of the deposited data

How the results depend on the processing

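Without the replicate block edgeR called 136 genes, 1 member and 6 pathway genes. With the replicate block, the pairing by number, it called 5103, 5 and 105, DESeq2 called 1046, 4 and 69, and DESeq2 with the replicate block 2209, 4 and 90. At an FDR of 0.05 the counts were 1014, 3 and 64. The number of members was 0 in limma with either pseudocount on TPM (4 at an unadjusted p below 0.05), and 2 with RLE size factors, with FCN3 left out before normalization, without a filter and with at least 10 counts in every library, where E2F2 passed the threshold. With each library left out in turn, 92 to 267 genes, 0 to 2 members and 0 to 29 pathway genes were called. The largest counts came without EV replicate 2 (267, 2 and 29) and the smallest without FCN3 replicate 1 (92, 0 and 0). A group left with 1 library was assumed to vary like the other. Of all called genes 76.5% were higher without the block and 52.7% with it. The cause was not tested.

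E2F1, E2F2, E2F4, E2F8 and TFDP1 were lower and E2F6 higher under all 15 planned settings, though E2F4 ranged from -0.35 (without EV replicate 1) to -0.0088 (without EV replicate 2) and E2F6 was at 0.019 on log2(TPM + 1). E2F8 ranged from -1.75 to -1.5 on the log2 scale and lost its call in 4 settings, both TPM fits and without either library with the FCN3 virus, at adjusted p of 0.0101 to 0.0128 in limma and edgeR. E2F2 ranged from -1.61 to -1.24, E2F1 from -0.87 to -0.70 and TFDP1 from -0.59 to -0.36. Signs turned for E2F3 (range -0.12 to 0.039 with 1 library left out, above 0 without EV replicate 1), E2F5 (-0.087 to 0.36, below 0 without EV replicate 2 and, at -0.0058, without FCN3 replicate 1), E2F7 (-0.10 to 0.43, below 0 without FCN3 replicate 1) and TFDP2 (-0.038 to 0.25, below 0 without EV replicate 2). TFDP2 was also below 0 on log2(TPM + 1), at -0.0032, and on log2(TPM + 0.1), at -0.0029. Depth limits genes of few counts such as TP73 and STAG3.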

Other observations

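Over the 4 libraries, the log2 CPM profile of each member, centred on its own mean, was compared with those of the other tested genes by the root mean square difference. The genes closest to E2F8 were PEG10 (0.056), LOC388282 (0.063) and SYT12 (0.070). PEG10, a gene derived from a retrotransposon, was also the closest to E2F2 (0.046), before LGR4 (0.052) and its ligand gene RSPO3 (0.064). The fold changes of these 3 on the log2 scale were -1.57, -1.47 and -1.43, and edgeR called all 3 at adjusted p of 0.0026 to 0.0030. Closest to E2F1 were AVPI1 (0.023), HMGN3 (0.024) and KIF22 (0.026), the last a mitotic kinesin gene. Closest to TFDP1 were DKFZP586I1420 (0.0058), GEMIN4 (0.011) and DEPDC1 (0.012). DKFZP586I1420 is a gene of few counts, at a mean log2 CPM of 0.31 against 7.08 for GEMIN4 and 5.96 for DEPDC1. It was called in neither edgeR fit (adjusted p = 0.368, blocked 0.161), so its rank is uncertain. With 4 libraries in 2 groups a profile holds little beyond a fold change and a replicate difference, and many genes lie close to any member.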
